A study of Mus musculus with 42 samples.

Results

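Podocyte genes were followed in whole kidneys of 2 mouse models, one with inducible Cre throughout the body and one with Cre in the renal tubule, outside the podocyte lineage. The set held 7 genes, Nphs1, Podxl, Ptpro, Synpo, Plce1, Wt1 and Cdkn1c, taken by name from 54532 genes in the expression tables, and all 7 passed the filter on low counts in every fit. In the whole-body model, tamoxifen-inducible CaggCreERT2 was activated through the milk of treated mothers and kidneys were taken at postnatal day 30. In the tubular model, KspCre, driven by the cadherin 16 promoter, was active in renal tubular epithelium and kidneys were taken at day 50. All mice were C57BL/6.

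Each model had control, Tsc2 KO (Tsc2 fl/fl), Tfeb KO (Tfeb fl/fl) and double knockout (DKO, Tsc2 fl/fl and Tfeb fl/fl) kidneys. The labels call the controls wild type. The text of the study gives the CaggCreERT2 controls used for RNA sequencing as Cre-positive Tsc2+/+ mice exposed to tamoxifen, and the KspCre controls lacked Cre. A separate KspCre cohort of control, Tsc2 KO and DKO mice received vehicle or rapamycin at 1 mg/kg 3 times a week, 11 injections in all from day 25, with harvest at day 50. There were 14 groups of 3 mice, 42 libraries in all. RNA came from pieces of whole kidney, and p-values measure the spread between these mice. Cohort, age, Cre driver, control genotype and the mix of sexes change together between the models. A difference between models therefore cannot be told apart from a difference in age, cohort, control genotype or sex.

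Podocytes are the epithelial cells that wrap the glomerular capillaries and whose interlocking foot processes, bridged by the slit diaphragm, form the outer layer of the filtration barrier. They leave the cell cycle as they mature and depend on a small set of transcription factors, actin regulators and junction proteins that are also the targets of inherited nephrotic syndromes. Tsc2 restrains mTORC1, the kinase complex that rapamycin inhibits, and TFEB is a transcription factor of lysosomal genes whose position in the cell is governed by mTORC1. The comparison asked how genes of a cell that KspCre does not target behaved when Tsc2 was lost in the tubule. Their behaviour in the model with inducible Cre throughout the body was set beside it. Whether Tsc2 was deleted in the podocytes of that model was not measured here.

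Promoter sequences are shown for Nphs1 and Ptpro, the members with the largest falls in CaggCreERT2 and KspCre. RefSeq promoters on GRCm38.p6, 250 bases before to 50 bases after the annotated start, were matched for 3 of 7 members (Nphs1, Ptpro and Plce1). Nphs1 lies at chr7:30459808-30460107 and Ptpro at chr6:137252049-137252348, both on the plus strand and written 5′ to 3′, with capitals marking each CANNTG (E-box) on either strand.
Nphs1 promoter: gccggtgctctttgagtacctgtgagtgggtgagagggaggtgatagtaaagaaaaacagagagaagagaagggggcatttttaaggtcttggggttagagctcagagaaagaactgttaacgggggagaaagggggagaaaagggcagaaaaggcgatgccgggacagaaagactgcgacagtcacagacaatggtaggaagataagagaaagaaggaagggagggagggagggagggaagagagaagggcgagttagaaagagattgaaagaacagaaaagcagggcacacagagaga
Ptpro promoter: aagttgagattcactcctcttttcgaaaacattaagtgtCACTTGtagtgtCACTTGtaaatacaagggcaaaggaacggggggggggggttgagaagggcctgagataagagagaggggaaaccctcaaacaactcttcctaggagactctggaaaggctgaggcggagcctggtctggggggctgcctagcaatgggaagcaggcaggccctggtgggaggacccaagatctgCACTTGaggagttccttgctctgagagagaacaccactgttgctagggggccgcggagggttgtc

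The Ptpro window held 3 CANNTG matches, the Plce1 window 1 and the Nphs1 window 0, and 72.3% of 32851 mouse promoters of that length held at least 1. CACGTG, the core of the element that TFEB binds and itself a CANNTG, was in none of the 3 windows and in 7.15% of all promoters. GCGTGGG, a core motif of WT1, was in none of the 3 windows on either strand and in 5.04% of all promoters. The GC content was 49.7% for Nphs1, 54.7% for Ptpro and 41% for Plce1, against a median of 52.7% over all promoters. These letters describe the windows alone.

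Libraries held 14926050 to 22807605 reads assigned to genes, with a median of 17802376. Tsc2 was lower in every library labelled with the deletion than in every library labelled without it in each cohort: 4.06 to 5.64 FPKM against 9.05 to 10.6 in CaggCreERT2, 3.54 to 5.81 against 6.86 to 9.88 in KspCre, and 3.8 to 6.5 against 8.18 to 9.81 in the drug cohort. FPKM are fragments scaled to gene length and to the mapped total of the library. Tfeb separated its labels without overlap in CaggCreERT2 and in the drug cohort, and overlapped in KspCre, where it was 2.65 to 5.25 FPKM with the deletion and 3.66 to 6.24 without. For 4 CaggCreERT2 libraries the name over the counts was not the name over the FPKM, and for 2 of them the genotype differed; the FPKM side was followed. By Xist and Ddx3y the CaggCreERT2 controls were 3 males, the Tfeb KO 3 females, the Tsc2 KO 2 females and 1 male and the DKO 1 female and 2 males, and all 30 KspCre libraries were female. Transcripts of 7 adrenal cortex genes summed to 275 to 4345 FPKM in 4 libraries (CaggCreERT2 Tfeb KO 1, Tsc2 KO vehicle 1, and DKO vehicle 1 and 2), to 34.4 and 52 in 2 others, and to at most 2.43 in the remaining 36.

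Among controls, Podxl was the most abundant member per length and Plce1 the least in each of the 3 cohorts. In CaggCreERT2 controls the mean FPKM was 88.2 for Podxl, 29.6 for Cdkn1c, 14.6 for Synpo, 10.8 for Nphs1, 7.39 for Ptpro, 4.14 for Wt1 and 1.12 for Plce1. KspCre controls gave 65.5 for Podxl, 18.1 for Cdkn1c, 11.1 for Synpo, 7.44 for Nphs1, 4.7 for Ptpro, 2.77 for Wt1 and 1.01 for Plce1. The order of the 7 genes was the same in both, and the tables of the cohorts were normalized separately, so the levels are set side by side and not tested. In the vehicle controls Cdkn1c again came second, at 15.4, and Nphs1 at 5.63 and Ptpro at 5.12 lay next to each other with overlapping ranges.

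**Figure D1:**
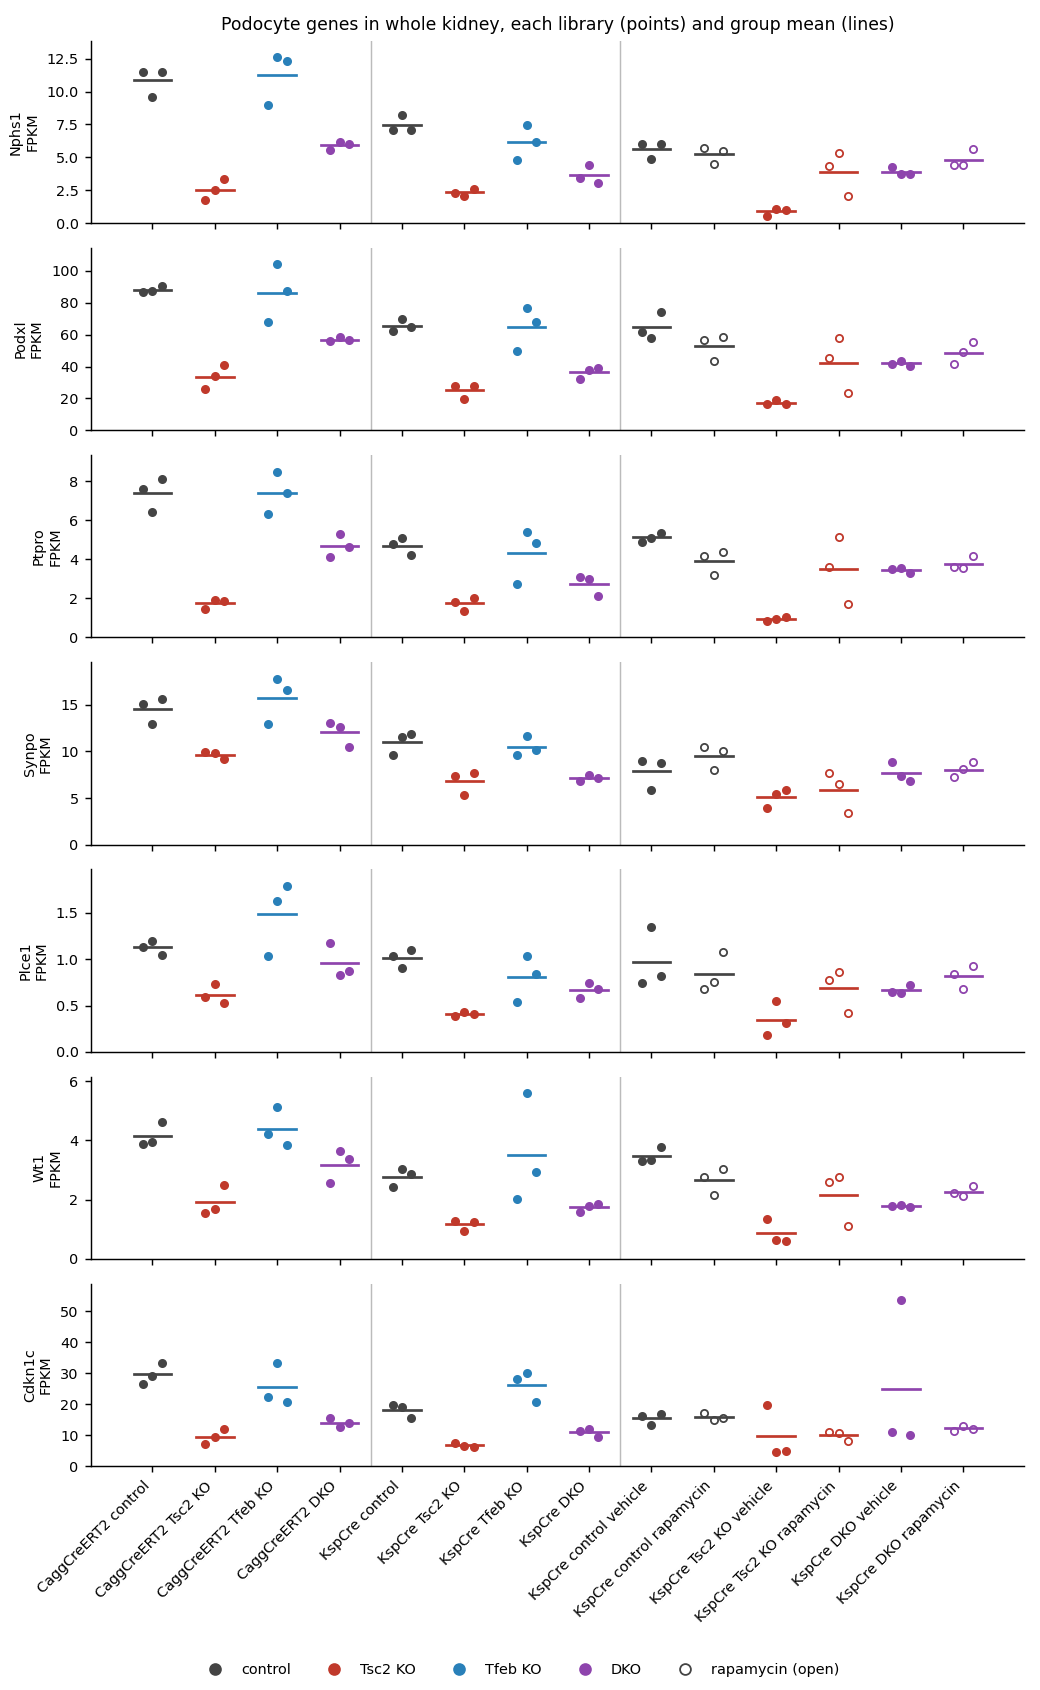
Deposited FPKM (y axis, linear, from 0) of the 7 podocyte genes in each of 42 libraries (points) with the group mean (line), for 14 groups of 3 kidneys; grey lines divide the CaggCreERT2, KspCre and drug cohorts, and open points are rapamycin. Tsc2 KO libraries sit lowest in both models for Nphs1 and Ptpro, and Cdkn1c has a library at 53.5 FPKM in the DKO vehicle group.

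Podocyte genes were lower in Tsc2 KO kidneys of both models. In CaggCreERT2 Tsc2 KO kidneys all 7 of 7 members fell against controls at an adjusted p of 0.05 or lower (edgeR), where 13.4% of 16348 genes tested fell. In KspCre Tsc2 KO kidneys all 7 of 7 fell as well, where 6.21% of 16631 genes fell. In the vehicle-treated KspCre cohort 5 of 7 fell, where 18.9% of 17027 genes fell, and the other 2, Synpo and Cdkn1c, had log2 fold changes of -0.62 and -0.66. The median log2 fold change of the members was -1.33, -1.39 and -1.90 in the 3 comparisons, and the median over all genes tested was 0.00, -0.01 and 0.01. In whole kidney RNA, fewer podocytes, less of each transcript per podocyte and more RNA from other cells cannot be told apart. The study describes the Tsc2 KO kidneys of both models as enlarged. Mean levels in Tsc2 KO ran from 23.5% (Nphs1) to 66.1% (Synpo) of the control mean in CaggCreERT2 and from 31.4% (Nphs1) to 61.7% (Synpo) in KspCre.

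**Figure D2:**
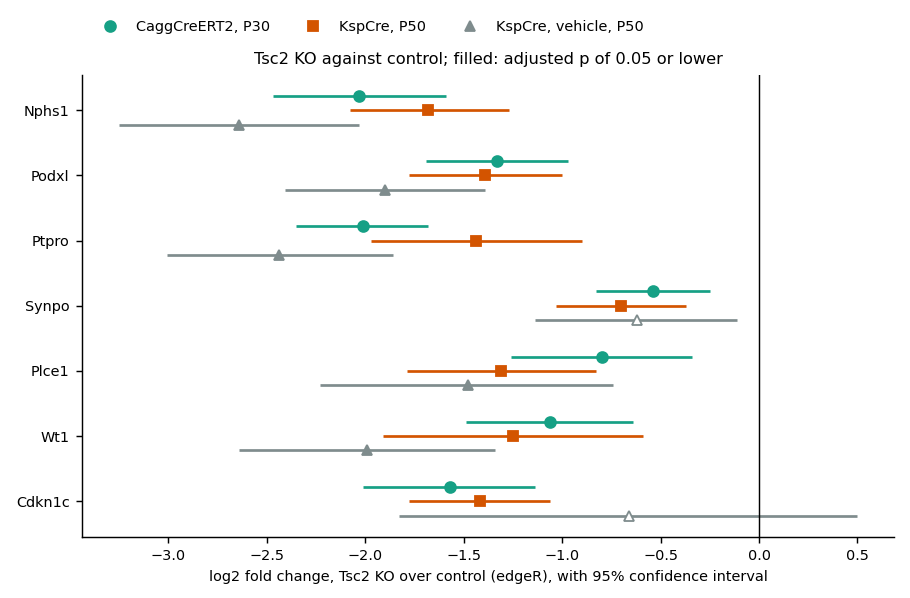
Log2 fold change of Tsc2 KO over control (x axis, points) with 95% confidence intervals (lines) for the 7 members, in 3 cohorts of 3 against 3 kidneys; filled points passed an adjusted p of 0.05. Every point lies below 0, Nphs1 lies at -2.03, -1.68 and -2.64, and Synpo lies nearest to 0 in both cohorts without injections.

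Nphs1 encodes nephrin, the adhesion protein of the slit diaphragm, and lies on mouse chromosome 7 (chr7:30458315-30487223, plus strand, GRCm38). In CaggCreERT2 it stood at 11.5, 9.56 and 11.5 FPKM in controls and at 1.74, 2.55 and 3.36 in Tsc2 KO kidneys. In KspCre it stood at 7.08, 8.18 and 7.05 in controls and at 2.31, 2.07 and 2.62 in Tsc2 KO. With vehicle it stood at 6.02, 4.85 and 6.01 in controls and at 0.573, 1.1 and 1.02 in Tsc2 KO. Every Tsc2 KO kidney was below every control of its cohort. Nphs1 fell 4.09-fold in CaggCreERT2 (log2 -2.03 ± 0.20, SE; adjusted p = 2.74e-05), 3.2-fold in KspCre (-1.68 ± 0.18; adjusted p = 3.07e-04) and 6.23-fold with vehicle (-2.64 ± 0.29; adjusted p = 3.85e-06). The male CaggCreERT2 Tsc2 KO kidney stood at 2.55 beside the 3 male controls.

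Podxl encodes podocalyxin, a negatively charged sialomucin of the foot process surface that vascular endothelium also carries, and lies at chr6:31519488-31563981 on the minus strand. CaggCreERT2 controls stood at 87, 87.3 and 90.3 FPKM and Tsc2 KO kidneys at 26.2, 34.2 and 40.7. KspCre controls stood at 62.1, 69.5 and 65 and Tsc2 KO at 27.7, 19.9 and 27.7. Vehicle controls stood at 61.7, 57.8 and 74.4 and Tsc2 KO at 16.3, 19.2 and 16.5. No group pair overlapped. The fall was 2.51-fold in CaggCreERT2 (-1.33 ± 0.16; adjusted p = 1.19e-04), 2.62-fold in KspCre (-1.39 ± 0.18; adjusted p = 6.47e-04) and 3.73-fold with vehicle (-1.90 ± 0.24; adjusted p = 1.51e-05).

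Ptpro encodes the receptor tyrosine phosphatase GLEPP1 of the apical foot process membrane and lies at chr6:137252319-137463233 on the plus strand. Its FPKM were 7.6, 6.43 and 8.13 in CaggCreERT2 controls and 1.46, 1.92 and 1.89 in Tsc2 KO. They were 4.77, 5.11 and 4.2 in KspCre controls and 1.82, 1.38 and 2.02 in Tsc2 KO. They were 4.9, 5.09 and 5.35 in vehicle controls and 0.835, 0.957 and 1.04 in Tsc2 KO. The Tsc2 KO kidneys were below all controls in each cohort. Ptpro fell 4.04-fold (-2.01 ± 0.15; adjusted p = 5.95e-06), 2.7-fold (-1.44 ± 0.25; adjusted p = 0.00315) and 5.42-fold (-2.44 ± 0.27; adjusted p = 4.43e-06) in the same order of cohorts.

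Synpo encodes synaptopodin, an actin-associated protein of the foot process, and lies at chr18:60593973-60660142 on the minus strand. It was 15.1, 13 and 15.6 FPKM in CaggCreERT2 controls and 9.9, 9.8 and 9.17 in Tsc2 KO. It was 9.62, 11.6 and 11.9 in KspCre controls and 7.42, 5.34 and 7.71 in Tsc2 KO. In the vehicle groups it was 8.94, 5.87 and 8.81 in controls and 3.96, 5.45 and 5.89 in Tsc2 KO. The first 2 pairs did not overlap, and with vehicle one control lay within the Tsc2 KO range. Synpo fell 1.45-fold in CaggCreERT2 (-0.54 ± 0.13; adjusted p = 0.0102) and 1.63-fold in KspCre (-0.70 ± 0.15; adjusted p = 0.00963), and its vehicle value of -0.62 ± 0.24 had an adjusted p of 0.0537. That value passed without vehicle control 2 (-0.80; adjusted p = 0.0251) and by DESeq2 (-0.63; adjusted p = 0.0381).

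Plce1 encodes phospholipase C epsilon 1, a Ras-regulated phospholipase, and lies at chr19:38481109-38785030 on the plus strand. It was the least abundant member, at 1.13, 1.2 and 1.05 FPKM in CaggCreERT2 controls and 0.595, 0.728 and 0.532 in Tsc2 KO. It was 1.03, 0.903 and 1.1 in KspCre controls and 0.39, 0.429 and 0.405 in Tsc2 KO. With vehicle it was 0.748, 1.35 and 0.817 in controls and 0.18, 0.548 and 0.308 in Tsc2 KO. No pair of groups overlapped. The fall was 1.74-fold (-0.80 ± 0.21; adjusted p = 0.0144), 2.48-fold (-1.31 ± 0.22; adjusted p = 0.00264) and 2.8-fold (-1.48 ± 0.35; adjusted p = 0.00341). In CaggCreERT2 the calls of Plce1 and Synpo were lost with Xist, a marker of sex, as a covariate (-0.65, adjusted p = 0.109, and -0.42, adjusted p = 0.105). They were also lost with the names of the count table (edgeR, adjusted p = 0.0701 and 0.0547). The log2 values there were unchanged, at -0.80 (SE 0.28) and -0.54 (SE 0.18). The call of Plce1 changed sides without Tsc2 KO 1 (-0.78, adjusted p rounding to 0.05).

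Wt1 encodes the zinc finger transcription factor that mature podocytes keep expressing, and lies at chr2:105126529-105173616 on the plus strand. It was 3.88, 3.94 and 4.62 FPKM in CaggCreERT2 controls and 1.54, 1.68 and 2.5 in Tsc2 KO. It was 2.43, 3.02 and 2.87 in KspCre controls and 1.29, 0.948 and 1.26 in Tsc2 KO. With vehicle it was 3.29, 3.33 and 3.77 in controls and 1.35, 0.647 and 0.623 in Tsc2 KO. All Tsc2 KO kidneys were below the controls, and Tsc2 KO vehicle 1, the highest of its group, was one of the 4 libraries rich in adrenal transcripts. Wt1 fell 2.09-fold (-1.06 ± 0.20; adjusted p = 0.00175), 2.38-fold (-1.25 ± 0.30; adjusted p = 0.0177) and 3.97-fold (-1.99 ± 0.31; adjusted p = 1.01e-04). The KspCre call was lost without control 2 (adjusted p = 0.0585), control 3 (adjusted p = 0.0525) or Tsc2 KO 2 (adjusted p = 0.0714), at log2 values of -1.18, -1.21 and -1.12.

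Cdkn1c encodes p57, a cyclin-dependent kinase inhibitor of resting podocytes that is also expressed in adrenal cortex, and lies at chr7:143458339-143461050 on the minus strand. It was 26.6, 29 and 33.2 FPKM in CaggCreERT2 controls and 7.19, 9.56 and 11.9 in Tsc2 KO. It was 19.7, 19 and 15.6 in KspCre controls and 7.52, 6.59 and 6.23 in Tsc2 KO. With vehicle it was 16.1, 13.4 and 16.8 in controls and 19.6, 4.62 and 5.01 in Tsc2 KO. The groups were separate in both cohorts without injections, and with vehicle a single Tsc2 KO library lay above every control. Cdkn1c fell 2.98-fold in CaggCreERT2 (-1.57 ± 0.20; adjusted p = 1.40e-04) and 2.67-fold in KspCre (-1.42 ± 0.16; adjusted p = 3.88e-04), and its vehicle value was -0.66 ± 0.55 (adjusted p = 0.365).

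That library, Tsc2 KO vehicle 1, held 1374 summed FPKM of the 7 adrenal genes, and DKO vehicle 2, with 4345, held the highest Cdkn1c of the series, 53.5 FPKM beside 11.1 and 10.2 in the other DKO vehicle kidneys. DKO vehicle 1, with 310, and CaggCreERT2 Tfeb KO 1, with 275, did not exceed their groups in Cdkn1c. A fit without the libraries above 100 summed FPKM, chosen after the data were seen, left 2 Tsc2 KO vehicle and 1 DKO vehicle kidneys, the latter assumed to vary like the other groups. In it Cdkn1c was lower in vehicle Tsc2 KO than in control by 1.68 on the log2 scale. Wt1 moved from -1.99 to -2.44 and Nphs1 from -2.64 to -2.40. Cdkn1c values that were not called changed sign, from 0.69 to -0.60 for DKO against control with vehicle and from -1.02 to 0.26 for rapamycin in DKO. Over the 37 libraries left in groups of at least 2, the pooled SD of log2 CPM (counts scaled to library size) within groups was 0.22 for Cdkn1c, against 0.51 over all 42.

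**Figure D3:**
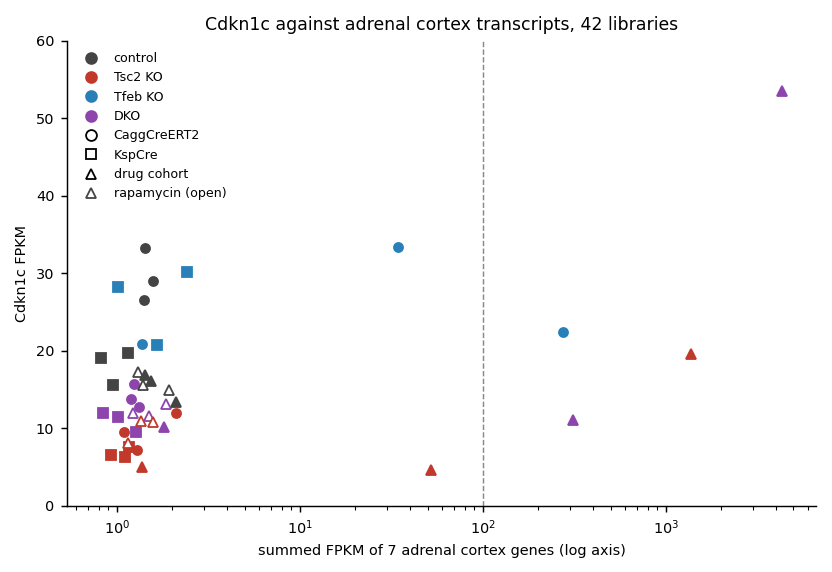
Cdkn1c (y axis, FPKM) against the summed FPKM of 7 adrenal cortex genes (x axis, log scale) in 42 libraries, with colour for genotype, shape for cohort and open symbols for rapamycin; the dashed line marks 100. The library with the highest adrenal sum, 4345, has the highest Cdkn1c, 53.5, and most libraries lie below 2.43 on the x axis.

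The Tsc2 effect on each member was then compared between models, as the difference of the 2 within-cohort log2 fold changes in one fit of all 42 libraries. Between CaggCreERT2 and KspCre, 0 of 7 members differed (edgeR; 0 at an unadjusted p under 0.05), where 1.2% of 18036 genes differed. The differences, CaggCreERT2 minus KspCre, were -0.37 for Nphs1 (95% interval -1.06 to 0.32), 0.05 for Podxl (-0.55 to 0.64), -0.59 for Ptpro (-1.28 to 0.10) and 0.15 for Synpo (-0.42 to 0.72). They were 0.50 for Plce1 (-0.33 to 1.33), 0.18 for Wt1 (-0.65 to 1.00) and -0.17 for Cdkn1c (-1.35 to 1.02). The intervals of Nphs1, Ptpro, Plce1 and Cdkn1c reach beyond 1 on the log2 scale, so these data do not show that the models act alike on these genes. With only the CaggCreERT2 and KspCre libraries in the fit the Cdkn1c difference was -0.14 with an SE of 0.27, against 0.58 with the drug cohort included.

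Against the vehicle-treated KspCre cohort, 0 of 7 members differed from CaggCreERT2 (edgeR; 1 at an unadjusted p under 0.05), where 3.71% of genes differed. The difference was positive for 6 members, the fall in CaggCreERT2 being the smaller, and reached 0.93 for Wt1 (0.10 to 1.75; adjusted p = 0.213). Without the adrenal-rich libraries Wt1 was at 1.40 (adjusted p = 0.0601), and Cdkn1c, the negative one, went from -0.91 to 0.12. Within the KspCre model, the falls in the cohort without injections and in the vehicle cohort differed for 0 of 7 members (edgeR; 2 at an unadjusted p under 0.05), where 0.815% of genes differed. The difference was 0.97 for Nphs1 (0.27 to 1.68; adjusted p = 0.18) and 1.01 for Ptpro (0.31 to 1.71; adjusted p = 0.154), neither of which was called. For these genes the values between both KspCre cohorts were larger than those between CaggCreERT2 and either of them.

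Loss of Tfeb alone left 0 of 7 members called in CaggCreERT2 (edgeR; 0 at an unadjusted p under 0.05 and 0 by DESeq2), where 0.0184% of genes were called in either direction. In KspCre it again left 0 of 7 (edgeR; 1 at an unadjusted p under 0.05, Cdkn1c, and 0 by DESeq2), where 0% were called. Nphs1 was 8.95, 12.6 and 12.3 FPKM in CaggCreERT2 Tfeb KO and 4.8, 7.45 and 6.17 in KspCre Tfeb KO. Both ranges overlapped those of their controls. Cdkn1c was 28.2, 30.1 and 20.7 in KspCre Tfeb KO, each above every control, with a log2 value of 0.54 (95% interval 0.20 to 0.89). A difference of the Tfeb effect between models was called for 0 of 7 members (edgeR, 0 at an unadjusted p under 0.05), where 0.0166% of genes differed. The 95% intervals of Nphs1, Plce1 (-0.07 to 1.57), Wt1 and Cdkn1c (-1.91 to 0.43) reach beyond 1 on the log2 scale. These data therefore do not show that the effect is alike in both models for these genes. In CaggCreERT2 the Tfeb KO kidneys were female and the controls male, so sex and genotype cannot be told apart there.

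Loss of Tfeb in addition to Tsc2 was followed by higher levels of 4 of the 7 members in CaggCreERT2 and in vehicle-treated KspCre kidneys. In CaggCreERT2, 4 of 7 members rose in DKO over Tsc2 KO, where 5.34% of genes rose. Nphs1 was 5.52, 6.2 and 6.02 FPKM in DKO and rose 2.29-fold (1.20 ± 0.20; adjusted p = 0.00422). Ptpro was 4.13, 5.27 and 4.62 and rose 2.62-fold (1.39 ± 0.15; adjusted p = 3.92e-04). Podxl was 55.8, 58.3 and 56.4 and rose 1.66-fold (0.73 ± 0.16; adjusted p = 0.0158), and Wt1 was 2.55, 3.64 and 3.36 and rose 1.64-fold (0.72 ± 0.20; adjusted p = 0.0382). Synpo was 13.1, 12.6 and 10.5 in DKO, Plce1 1.18, 0.834 and 0.873, and Cdkn1c 15.7, 12.7 and 13.8. These 3 were not called (edgeR, adjusted p = 0.171, 0.0893 and 0.106). The calls of Wt1 and Podxl were lost without DKO 2, DKO 3 or Tsc2 KO 1, and Wt1 also without Tsc2 KO 2, at log2 values of 0.59 to 0.68 for Wt1 and 0.58 to 0.74 for Podxl. Wt1 was also not called with Xist as a covariate (0.77, adjusted p = 0.0543), and Cdkn1c was called without Tsc2 KO 3 (0.72, adjusted p = 0.0394). Within sexes, Nphs1 was 1.74 and 3.36 in female Tsc2 KO and 6.02 in the female DKO, and 2.55 in the male Tsc2 KO and 5.52 and 6.2 in the male DKO kidneys.

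In the vehicle cohort, 4 of 7 members rose in DKO over Tsc2 KO, where 11.9% of genes rose. Nphs1 was 4.3, 3.73 and 3.71 FPKM in DKO, above the highest Tsc2 KO kidney at 1.1, and rose 4.33-fold (2.12 ± 0.29; adjusted p = 8.90e-05). Ptpro, at 3.51, 3.53 and 3.32, rose 3.66-fold (1.87 ± 0.27; adjusted p = 1.46e-04) and Podxl, at 41.8, 43.7 and 40.5, rose 2.42-fold (1.28 ± 0.24; adjusted p = 0.00109). Wt1, at 1.78, 1.83 and 1.74, rose 2.05-fold (1.03 ± 0.30; adjusted p = 0.0232), a call lost without DKO vehicle 1 (1.03; adjusted p = 0.0533), DKO vehicle 3 (1.05; 0.0516), Tsc2 KO vehicle 2 (0.85; 0.103) or Tsc2 KO vehicle 3 (0.84; 0.0931). Without the adrenal-rich libraries Nphs1, Ptpro, Wt1 and Cdkn1c (1.08; adjusted p = 0.00502) rose, and Podxl, at 1.19, had an adjusted p of 0.0655. Over all libraries Cdkn1c was at 1.35 with an adjusted p of 0.0948, and it was called without DKO vehicle 3 (1.72; 0.0446) or Tsc2 KO vehicle 1 (2.36; 0.00671). Plce1, at 0.94, was called without Tsc2 KO vehicle 2 (1.44; adjusted p = 0.0119).

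In KspCre without injections, 0 of 7 members were called for DKO over Tsc2 KO (edgeR; 5 at an unadjusted p under 0.05 and 1 by DESeq2, Cdkn1c), where 0.144% of genes were called in either direction. All 7 values were positive, from 0.07 for Synpo to 0.71 for Plce1. Nphs1 was 3.4, 4.44 and 3.04 FPKM in DKO against 2.31, 2.07 and 2.62 in Tsc2 KO, and its log2 value was 0.64 (95% interval 0.24 to 1.03). The Synpo DKO kidneys, at 6.88, 7.44 and 7.11, lay within the Tsc2 KO range. KspCre DKO 1 stood apart in immune transcripts, with C1qa at 107 FPKM and Cd3e at 3.42, and it was the lowest of the 3 DKO kidneys for Podxl, Synpo, Plce1 and Wt1, the highest for Ptpro and between the others for Nphs1 and Cdkn1c.

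Against controls, DKO kidneys of both models were still low in part of the set. In CaggCreERT2, 4 of 7 members were lower, where 3.35% of genes fell: Nphs1 (-0.84; adjusted p = 0.0162), Podxl (-0.60; 0.0361), Ptpro (-0.62; 0.0181) and Cdkn1c (-1.03; 0.00553). With Xist as a covariate, Podxl (-0.59, adjusted p = 0.0751) and Ptpro (-0.58, adjusted p = 0.0504) were not called there (edgeR). In KspCre, 4 of 7 were lower, where 0.83% of genes fell: Nphs1 (-1.04; adjusted p = 0.0147), Podxl (-0.85; 0.0295), Synpo (-0.63; 0.0447) and Cdkn1c (-0.72; 0.0357). Each of these comparisons lost calls whichever library was left out, down to 1 of 7 in CaggCreERT2 and 0 of 7 in KspCre, while the log2 values of the members that lost a call stayed near the full fit: -0.58 to -0.63 for Podxl in CaggCreERT2, and -0.77 to -0.91 for Podxl and -0.56 to -0.73 for Synpo in KspCre. With the names of the count table no member was called in CaggCreERT2, at log2 values of -0.36 for Nphs1, -0.35 for Podxl, -0.32 for Ptpro and -0.87 for Cdkn1c (adjusted p = 0.762, 0.663, 0.698 and 0.426). Those names put 1 of the Tfeb KO libraries, where Tsc2 was 9.05 to 10.2 FPKM, into DKO and 1 of the DKO libraries, at 4.82 to 5.64, into Tfeb KO, so that Tsc2 goes against them. In the vehicle cohort 0 of 7 were called (edgeR; 3 at an unadjusted p under 0.05 and 1 by DESeq2, Wt1), where 6.01% of genes were called in either direction, and Wt1 had the largest value, -0.96 (95% interval -1.59 to -0.33). The DKO effect differed between CaggCreERT2 and KspCre for 0 of 7 members (edgeR; 0 at an unadjusted p under 0.05), where 0.444% of genes differed.

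The Tfeb effect with Tsc2 absent was also set against that with Tsc2 present. In CaggCreERT2 the difference was called for 1 of 7 members, Ptpro (1.37 ± 0.21; adjusted p = 0.0089), where 1.05% of genes were called higher. Nphs1, at 1.11, had an adjusted p of 0.069, and with DESeq2 Nphs1 (1.12; 0.00634) and Podxl (0.74; 0.0387) were called too. Without Tsc2 KO 3 both were also called by edgeR (1.35 and 0.89). With Xist as a covariate Ptpro was not called (1.19; adjusted p = 0.255). In KspCre 0 of 7 were called (edgeR; 4 at an unadjusted p under 0.05 and 0 by DESeq2), where 0% of genes were called, with values from 0.14 for Synpo to 1.04 for Plce1.

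Rapamycin in Tsc2 KO mice was followed by higher levels of 5 of 7 members, where 15.4% of genes rose. Nphs1 went from 0.573, 1.1 and 1.02 FPKM with vehicle to 4.36, 5.3 and 2.05 and rose 4.33-fold (2.12 ± 0.29; adjusted p = 5.17e-05). Ptpro, at 3.61, 5.13 and 1.7, rose 3.7-fold (1.89 ± 0.27; adjusted p = 8.20e-05) and Podxl, at 45.1, 58 and 23.1, rose 2.43-fold (1.28 ± 0.24; adjusted p = 7.06e-04). For these 3 genes every rapamycin kidney lay above every vehicle kidney. Wt1, at 2.61, 2.78 and 1.1, rose 2.49-fold (1.32 ± 0.31; adjusted p = 0.00411), and Plce1, at 0.77, 0.865 and 0.423, rose 1.98-fold (0.99 ± 0.35; adjusted p = 0.0448); both overlapped the vehicle group. The Plce1 call was lost without Tsc2 KO vehicle 1 (0.68; adjusted p = 0.164), Tsc2 KO vehicle 3 (0.90; 0.127), Tsc2 KO rapamycin 1 (0.90; 0.109) or Tsc2 KO rapamycin 2 (0.79; 0.159). With only the groups compared in the fit, Wt1 (1.34, adjusted p = 0.0592) and Plce1 (1.02, adjusted p = 0.125) were not called (edgeR). Tsc2 KO rapamycin 3 was the lowest of its group for all 7 members, Synpo at 3.41 and Cdkn1c at 8.05 included.

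Synpo and Cdkn1c gave log2 values of 0.21 and 0.03 with rapamycin in Tsc2 KO. Without the adrenal-rich libraries Cdkn1c was at 1.04 and Plce1 at 0.68. Rapamycin in controls left 0 of 7 called (edgeR; 0 at an unadjusted p under 0.05 and 0 by DESeq2), where 0.0294% of genes were called, with Nphs1 at 5.73, 4.51 and 5.45 FPKM. In DKO it left 0 of 7 called (edgeR; 0 and 0 likewise), where 5.57% of genes were called, with Nphs1 at 4.39, 4.44 and 5.61. The difference between the rapamycin effect in Tsc2 KO and in control was called for 4 of 7, where 11.4% of genes were called higher: Nphs1 (2.22 ± 0.39; adjusted p = 0.001), Ptpro (2.27 ± 0.37; 5.35e-04), Podxl (1.57 ± 0.33; 0.00349) and Wt1 (1.70 ± 0.42; 0.0101). Plce1, at 1.19, was called without Tsc2 KO rapamycin 3 (1.45; 0.0467) or Tsc2 KO vehicle 2 (1.69; 0.02), and Cdkn1c, at -0.02, without the adrenal-rich libraries (0.99; 0.00525).

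Under rapamycin, Tsc2 KO differed from control in 0 of 7 members (edgeR; 1 at an unadjusted p under 0.05, Synpo, and 0 by DESeq2), where 0.634% of genes were called, and all 7 values were negative, from -0.69 to -0.17. Without Tsc2 KO rapamycin 3, Wt1 (0.03) and Ptpro (0.16) were positive. DKO differed from control under rapamycin in 0 of 7 (edgeR; 0 at an unadjusted p under 0.05 and 0 by DESeq2), where 0.0176% of genes were called. Mean levels in Tsc2 KO with rapamycin ran from 62.5% (Wt1) to 74.8% (Synpo) of the vehicle control mean, against 16% (Nphs1) to 64.8% (Synpo) with vehicle. The comparisons of rapamycin and of DKO share the Tsc2 KO vehicle kidneys, so the values stand side by side: 2.12 and 2.12 for Nphs1, 1.89 and 1.87 for Ptpro, 1.28 and 1.28 for Podxl, 1.32 and 1.03 for Wt1, 0.99 and 0.94 for Plce1, 0.21 and 0.58 for Synpo, and 0.03 and 1.35 for Cdkn1c. Without the adrenal-rich libraries the values of Cdkn1c were 1.04 and 1.08.

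**Figure D4:**
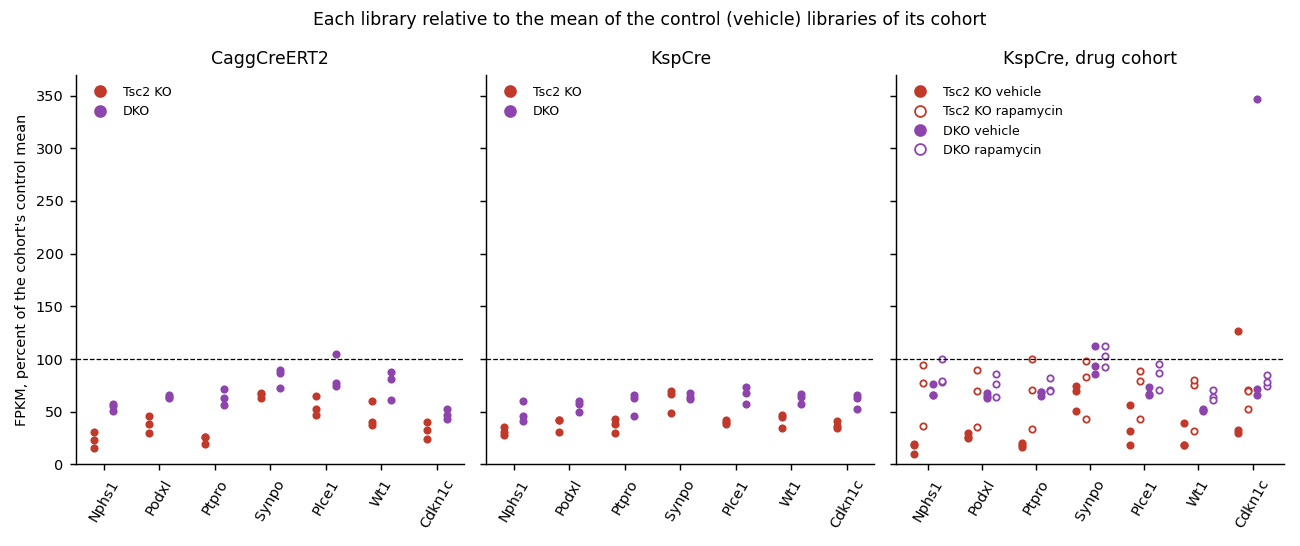
FPKM of each library as a percent of the mean of the control libraries of its cohort (y axis, linear from 0; dashed line at 100) for the 7 members (x axis), in Tsc2 KO and DKO kidneys of 3 cohorts, open points being rapamycin. In Tsc2 KO the group means run from 23.5% to 66.1% in CaggCreERT2, and the DKO means of most members lie between Tsc2 KO and 100. Synpo in KspCre DKO (62.2 to 67.3) lies within Tsc2 KO (48.3 to 69.7), and 1 Cdkn1c point of DKO with vehicle lies at 347.

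Some members fell further than others. The ratio of Nphs1 to Synpo FPKM within a library was 0.743 ± 0.0148 (SD, n = 3) in CaggCreERT2 controls and 0.267 ± 0.0954 in Tsc2 KO, and 0.677 ± 0.0753 and 0.346 ± 0.0383 in KspCre. With vehicle it was 0.728 ± 0.0864 in controls and 0.173 ± 0.029 in Tsc2 KO. Control and Tsc2 KO ranges of this ratio were separate in all 3 cohorts. It stood at 0.659 ± 0.13 in Tsc2 KO with rapamycin and at 0.515 ± 0.0301 in DKO with vehicle. The ratio of Ptpro to Nphs1 moved less, with overlapping ranges in all 3 cohorts: 0.663 to 0.708 in CaggCreERT2 controls and 0.563 to 0.841 in Tsc2 KO, 0.596 to 0.674 and 0.668 to 0.787 in KspCre, and 0.815 to 1.05 and 0.866 to 1.46 with vehicle. The ratio of Nphs1 to Plce1 overlapped in KspCre, at 6.42 to 9.06 in controls and 4.81 to 6.48 in Tsc2 KO, and was separate in CaggCreERT2 (7.97 to 11 and 2.92 to 6.31) and with vehicle (3.6 to 8.04 and 2.02 to 3.31). These ratios were chosen after the values were seen and are given as a description.

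Once the 14 group means were removed, some members varied together between kidneys of one group and others did so weakly. Over 42 libraries the Pearson r of log2 CPM between members ran from -0.33 (Plce1 and Cdkn1c) to 0.84 (Podxl and Ptpro). Nphs1, Podxl and Ptpro paired at 0.83 to 0.84, and Synpo paired with these 3 at 0.66 to 0.74. The median r to the other members was 0.44 for Plce1, 0.44 for Wt1 and 0.01 for Cdkn1c, and Plce1 and Wt1 paired at 0.12 (Spearman rho 0.04). Without the adrenal-rich libraries, over 37, the median was 0.42 for Plce1, 0.73 for Wt1 and 0.41 for Cdkn1c, and the median rho was 0.17, 0.62 and 0.43. Points from a library share its dissection, its depth and its scaling, and no test was made.

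The 8 protein-coding genes whose levels followed the mean of the members most closely, by the lowest Pearson r over the 3 cohorts among 14121 genes, included Myom2 (0.96), Ddn (0.94), Clic3 (0.94), Nebl (0.93), Crb2 (0.92), Cth (0.91) and Cwh43 (0.91). Each r covers 12, 12 and 18 libraries with the differences between groups left in. Ddn (dendrin) and Crb2, a polarity protein, are known podocyte genes, and Cth encodes an enzyme of cysteine synthesis. Of 26 other podocyte genes compared, 4 were within the first 100 places.

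Beyond the members, a list of 28 other podocyte genes was split. In CaggCreERT2, 13 of 28 fell and 3 rose in Tsc2 KO. In KspCre, 12 of 26 tested fell and 0 rose (edgeR), and with vehicle 14 of 27 fell and 2 rose. Over all genes tested, 13.4%, 6.21% and 18.9% fell and 15.6%, 7.64% and 19.4% rose. The list medians were -0.43, -0.62 and -0.55. The same 9 genes fell in all 3 cohorts, among them Arhgap24, Col4a3, Col4a4, Dach1, Ddn, Lmx1b, Robo2 and Vegfa.

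Ddn, a cytoskeletal protein of the slit diaphragm complex, fell by 1.97, 1.51 and 2.22 on the log2 scale in CaggCreERT2, KspCre and vehicle. Lmx1b, a transcription factor of podocyte differentiation, fell by 1.89, 1.29 and 2.05. Col4a3, a collagen chain of the glomerular basement membrane, fell by 1.44, 1.35 and 1.47, in CaggCreERT2 and KspCre from 35.7 ± 1.77 to 12.6 ± 1.84 FPKM and from 33.5 ± 3.75 to 13.1 ± 1.46 (SD, n = 3). Foxc2, a forkhead factor, fell by 1.31 in KspCre and by 1.36 with vehicle, and was not called in CaggCreERT2 (-0.34; adjusted p = 0.232). Robo2, a receptor at the foot process, fell by 1.09, 1.20 and 1.84 in CaggCreERT2, KspCre and vehicle. The 3 that rose in CaggCreERT2 were Actn4 (0.50), Cd2ap (0.68) and Myo1e (0.51), actin-linked proteins that tubular cells also express. They were named after their values were seen. In DKO over Tsc2 KO, 5 of the 28 rose and 0 fell in CaggCreERT2 (median 0.08), and with vehicle 9 of 27 rose and 2 fell, Cd2ap (-0.77) and Myo1e (-0.40), with a median of 0.32. Over all genes 5.34% rose in the first of these comparisons, and 11.9% rose and 10% fell in the second. In KspCre without injections 0 of 26 were called (edgeR; 9 at an unadjusted p under 0.05 and 5 of 28 by DESeq2), with a median of 0.45, where 0.144% of genes were called. The scaffold Magi2 was at -0.04, 0.17 and 0.01 and was not called in any of the 3 cohorts.

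Other glomerular cells were read from marker lists, and whole kidney RNA does not show which cells the listed transcripts came from. Of 8 genes listed for glomerular endothelium, 1 fell in CaggCreERT2, 7 fell in KspCre and 4 fell with vehicle. Their medians were -0.34, -1.01 and -0.85, and none rose. Beside the 13.4%, 6.21% and 18.9% of all genes that fell, 1 of 8 in CaggCreERT2 is near the background. Their summed FPKM ran from 105 to 121 in CaggCreERT2 controls and 59.6 to 98 in Tsc2 KO, and from 85.9 to 96.1 and 41.6 to 58.2 in KspCre. Ehd3, an endocytic protein of glomerular endothelium, fell in all 3 cohorts, by 0.92, 0.97 and 0.98 on the log2 scale. Of 8 mesangial and mural genes 2 fell and 2 rose in CaggCreERT2, 1 fell and 1 rose in KspCre, and 3 fell and 2 rose with vehicle. Gata3 fell in CaggCreERT2 (-0.49) and rose with vehicle (1.20), with 0.33 in KspCre, where it was not called. Among the 8 mesangial and mural genes the deepest fall in each cohort was of Ren1, which encodes renin (-2.34, -1.92 and -3.23 in the 3 cohorts). Of 5 genes listed for parietal epithelium all rose in CaggCreERT2, and 1 rose in each KspCre cohort. Over all genes tested 15.6%, 7.64% and 19.4% rose, and 1 of 5 with vehicle is near that share. Whether the counts differ between the models was not tested.

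**Figure D5:**
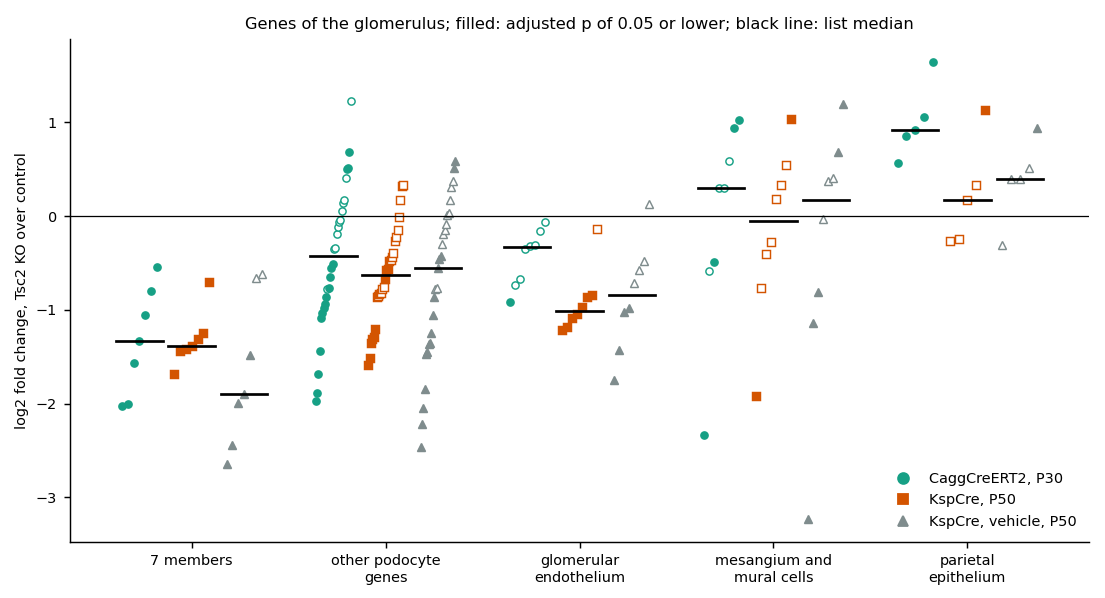
Log2 fold change of Tsc2 KO over control (y axis) for the 7 members and 4 lists of genes taken as glomerular markers (x axis). Each point is a gene, in CaggCreERT2, KspCre and vehicle-treated KspCre kidneys. Filled points passed an adjusted p of 0.05, and black lines are list medians. The member medians lie at -1.33, -1.39 and -1.90, and the other podocyte genes spread on both sides of 0.

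Most proximal tubule genes fell in Tsc2 KO kidneys of all 3 cohorts, and genes of later segments gave a mixed picture. Of 8 proximal tubule genes 6, 5 and 6 fell in CaggCreERT2, KspCre and vehicle Tsc2 KO, with medians of -1.05, -1.09 and -2.41, and 0 rose. With rapamycin in Tsc2 KO 7 of 8 rose, where 15.4% of genes rose. Of 6 thick limb and distal tubule genes 5, 3 and 4 fell. Their summed FPKM was lower in Tsc2 KO in CaggCreERT2 (1076 to 1305, against 1828 to 2161 in controls), higher in KspCre (2327 to 2547, against 1920 to 2133) and overlapping with vehicle (1279 to 2290, against 1697 to 2197). Of 6 collecting duct genes 3, 2 and 2 fell and 1 rose with vehicle. Over all genes tested, 13.4%, 6.21% and 18.9% fell and 15.6%, 7.64% and 19.4% rose in Tsc2 KO against control. Of 8 macrophage genes 3, 1 and 7 rose and 1 fell with vehicle, and of 5 proliferation genes 2, 5 and 5 rose, with summed FPKM from 1.05 to 2.83 in KspCre controls and 11.9 to 16.4 in Tsc2 KO. Of 6 T and B cell genes 1 rose with vehicle, and of 6 fibroblast genes 3 did. The part of these lists in the level of the podocyte genes was not tested.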

How the data were processed

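Poly-A RNA of 42 kidneys was sequenced from non-directional libraries, so that reads of overlapping genes on opposite strands cannot be told apart. The deposited tables hold raw read counts per gene and FPKM values that the authors computed separately in each of 3 cohorts. The submitters' processing notes name STAR 2.6.1d, HISAT2 2.0.5, featureCounts 1.5.0-p3, DESeq2 1.20.0 and mm10. The deposited FPKM are shown as levels and the deposited counts were tested. CaggCreERT2 count columns were joined to FPKM columns by value (coefficient of variation over genes of FPKM times gene length over count at most 1.97e-10, against at least 0.196 for the next column), and names follow the FPKM columns. Fold changes came from quasi-likelihood tests in edgeR 4.0.16 (R 4.3.3) with TMM factors and its filter on low counts, with all groups of a cohort in 1 fit and Benjamini-Hochberg adjustment over all genes tested. Calls required an adjusted p no higher than 0.05. Differences between cohorts came from 1 fit of all 42 libraries. DESeq2 1.42.0, other filters, scalings, covariates and libraries left out were alternatives. All 7 members are named, with, per Tsc2 KO comparison, up to 4 of the other podocyte genes called with the largest change, and the 8 genes most like the members; some of these are not reported here; genes added after their values were seen are marked as such. The members and lists were chosen with earlier results of these data known, and the adrenal list was added after the data were seen. Depth was 14926050 to 22807605 assigned reads.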

Additional observations from a re-analysis of the deposited data

Results flagged for a closer look

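The effect of Tfeb loss on Ptpro differed between CaggCreERT2 kidneys with and without Tsc2, by 1.37 on the log2 scale in an interaction test in edgeR. With Xist as a covariate it was 1.19 and was not called (adjusted p = 0.255), and the Tfeb KO kidneys of that cohort were female and the controls male. Rapamycin effects differed between Tsc2 KO and control mice, by the same kind of test, for Nphs1 (2.22), Ptpro (2.27), Wt1 (1.70) and Podxl (1.57). Transcripts of 7 adrenal cortex genes, which no comparison uses, summed to 275 FPKM in CaggCreERT2 Tfeb KO 1, to 1374 in Tsc2 KO vehicle 1, to 310 in DKO vehicle 1 and to 4345 in DKO vehicle 2, against at most 2.12 in the control libraries. CaggCreERT2 Tfeb KO 2 and Tsc2 KO vehicle 2, at 34.4 and 52 FPKM, also lay above every control. That list was chosen after the values were seen.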

How the results depend on the processing

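The number of members called in each comparison moved by no more than 1.5 times with RLE size factors and with the adrenal-rich libraries left out, an alternative chosen after the data were seen. With a minimum of 5 FPKM in a group, 2 of 7 were called for DKO over Tsc2 KO in CaggCreERT2, 4 for Tsc2 KO in KspCre, 3 for Tsc2 KO with vehicle, 1 for rapamycin in Tsc2 KO and 1 for DKO over Tsc2 KO with vehicle, since fewer members entered. With Xist as a covariate, 2 were called for CaggCreERT2 DKO against control and 0 for the CaggCreERT2 difference of Tfeb effects. With the names of the count table, 0 were called for CaggCreERT2 DKO against control. DESeq2 with all groups called 3 for the CaggCreERT2 difference of Tfeb effects, 1 for DKO against control with vehicle and 1 for DKO over Tsc2 KO in KspCre. DESeq2 with only the groups compared called 4 for DKO against control with vehicle, 1 for Tsc2 KO against control under rapamycin and 2 for DKO over Tsc2 KO in KspCre. Without a filter on low counts edgeR called 3 for the CaggCreERT2 difference of Tfeb effects and 1 for DKO against control with vehicle. With only the groups compared it called 3 for rapamycin in Tsc2 KO, 2 for DKO against control with vehicle and 2 for KspCre DKO against control. For these the cause was not tested.

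With each library left out in turn, the count ran from 2 to 5 for DKO over Tsc2 KO and from 1 to 3 for DKO against control in CaggCreERT2, from 1 to 3 for its difference of Tfeb effects, and from 0 to 2 for DKO against control in KspCre. It ran from 6 to 7 for Tsc2 KO in CaggCreERT2 and in KspCre and from 5 to 6 with vehicle. Of 2625 single-gene values under alternatives, 2469 kept direction and side of the threshold. Uncalled values that changed sign by less than the SE of the full fit were counted among them. A call was lost by 92 and gained by 43, and 20 changed sign by at least that SE, uncalled in either fit. The remaining 1 changed both sign and side of the threshold. It was the difference of rapamycin effects for Cdkn1c, 0.99 without the adrenal-rich libraries against -0.02. In the replicate block, KspCre DKO against control had 2 calls, since Podxl and Synpo (adjusted p = 0.0516 and 0.0783, at log2 values of -0.85 and -0.63 as without the block) lost theirs, and no other count moved by over 1.5 times. Same-numbered libraries correlated at -0.17 to 0.13 in CaggCreERT2, -0.29 to 0.25 in KspCre and -0.36 to 0.36 in the drug cohort, and 2 of 12, 6 of 12 and 7 of 18 libraries correlated best with their own number, so the numbers were not taken as pairs. Plce1 and Nphs1 had as few as 57 and 75 reads in a library, which limits the precision of their lowest values.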
